A study of Mus musculus with 5 samples.

Results

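The Id genes Id1, Id2, Id3 and Id4 encode the inhibitor-of-DNA-binding proteins, and they were followed here as all 4 array probes whose RefSeq accession belongs to these 4 mouse genes, out of 56595 probes kept and 22907 named genes. Each Id gene had 1 probe, printed as 1 spot per array. RNA was measured on 5 Agilent arrays with a single dye (Cy3), 1 sample per array, from B16F1, a mouse melanoma cell line. Wild-type B16F1 cells received vehicle (1 array), TGF-β1 at 10 ng/ml for 2 days (1 array), or TGF-β1 at that dose together with CCG1423, an inhibitor of MRTF and SRF signalling, at 10 µM for 2 days (1 array). The remaining 2 arrays held Tmsb4x knockout cells, clone 1 and clone 2, both with TGF-β1 at 10 ng/ml for 2 days, so each is a single clone and no knockout culture received vehicle. Tmsb4x encodes thymosin β4, which binds actin monomers, and monomeric actin in turn holds MRTF, a coactivator of the transcription factor SRF, inactive. The series title and the sample labels call the cells knockout and the design text knockdown. The treatment field of the CCG1423 array names CCG1423 alone, and its title and description name both agents.

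Id proteins have the helix-loop-helix domain through which this family of transcription factors pairs, but lack the basic region that touches DNA. They bind E proteins, encoded by Tcf3, Tcf4 and Tcf12, and so keep these and their tissue-specific partners off E-box sequences (CANNTG). Id genes are classic targets of bone morphogenetic proteins (BMPs), which act through SMAD1 and SMAD5. TGF-β acts mainly through SMAD2 and SMAD3 and is known to raise Id genes in some cell types and to lower them in others, in epithelial cells together with ATF3. In melanoma, ID1 has been described as a repressor of the cell cycle inhibitor gene Cdkn2a.

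The stretches just upstream of Id2 and Id3 are shown because these 2 genes stood on opposite sides of wild-type cells in the knockout clones. The RefSeq promoter table (GRCm38.p6) held 3 of the 4 genes, without Id1, and gives 250 bases before the start. Id2 lies on the minus strand (chr12:25096093-25096342) and Id3 on the plus strand (chr4:136143572-136143821). Capitals mark GGCGCC, a GC-rich element that SMAD proteins of the BMP branch can bind, CAGAC, the core of the CAGA element of SMAD3 and SMAD4, and TATAA, the core of a TATA box, each searched on both strands (CAGAC reads GTCTG on the other strand).
Id2: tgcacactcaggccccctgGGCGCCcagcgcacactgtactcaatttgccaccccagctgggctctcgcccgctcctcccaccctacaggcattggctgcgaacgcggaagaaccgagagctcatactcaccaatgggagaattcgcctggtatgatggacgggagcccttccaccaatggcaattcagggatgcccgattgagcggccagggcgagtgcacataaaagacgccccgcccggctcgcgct
Id3: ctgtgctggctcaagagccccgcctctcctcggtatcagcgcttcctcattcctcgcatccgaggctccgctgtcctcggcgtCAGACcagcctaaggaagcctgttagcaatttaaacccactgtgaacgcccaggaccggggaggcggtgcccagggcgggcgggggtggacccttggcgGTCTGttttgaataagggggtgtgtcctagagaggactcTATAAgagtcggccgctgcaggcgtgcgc
The Id2 stretch held 1 GGCGCC, from 231 to 226 bases before the start, and 0 CAGAC. The Id3 stretch held 0 GGCGCC and 2 CAGAC, beginning 167 and 68 bases before the start, and a TATAA beginning 29 bases before it. Over 32851 promoter stretches of this length, 9.59% held GGCGCC, 42.2% held CAGAC and 22.8% held TATAA. The CArG box, the site of SRF, was matched in neither stretch and in 1.47% of all stretches. An E-box (CANNTG) was matched once in the Id2 stretch, in none of the Id3 stretch and in 66.2% of all. A match describes the letters only.

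On the arrays 48.2% to 53.8% of probes were well above background, 0 spots were saturated, and all 5 arrays shared 1 slide and 1 scan. The 75th percentile of the processed signal, used for scaling, ran from 230 with CCG1423 to 329 in clone 2. All 14 melanocyte markers (Mitf, Sox10, Tyr, Dct, Pmel and others) were well above background on every array. Of the markers of other cells, 4 to 5 of 8 immune, 0 to 1 of 6 fibroblast, 1 to 2 of 6 epithelial and 0 to 1 of 6 endothelial genes were so. The immune genes Itgam (log2 levels 4.61 to 5.08), Cd68 (1.83 to 3.33), Csf1r and Cd3e were above background on all 5 arrays, while Ptprc, the pan-leukocyte gene, was on none. Pdgfra, Epcam and Cdh5, from the other 3 lists, were on none either. The targeted gene Tmsb4x lay at a log2 level of 5.05 under vehicle, 7.12 under TGF-β1 and 6.79 with both agents, and at 5.44 and 4.28 in clones 1 and 2. Where in Tmsb4x the edit lies is not given, so its probe may lie outside it.

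A level is the log2 processed signal minus the 75th percentile of that array, so 0 marks the 75th percentile. Levels of different genes rest on different probes and were not compared. Id1 stood at -0.04 under vehicle, -0.66 under TGF-β1, 0.44 with CCG1423 added, and -1.31 and -1.05 in clones 1 and 2. Its level was thus highest with CCG1423 and lowest in the clones, a span of 3.37-fold. Id2 stood at 2.49 under vehicle, 1.92 under TGF-β1, 1.79 with CCG1423 added, and 2.71 and 2.88 in clones 1 and 2, a span of 2.13-fold. The 2 clones were the highest arrays for Id2, and the wild-type arrays with TGF-β1 the lowest. Id3 stood at 1.55 under vehicle, 2.39 under TGF-β1, 2.63 with CCG1423 added, and 1.16 and 1.15 in clones 1 and 2, a span of 2.78-fold. Its order was the reverse of that of Id2, with the wild-type TGF-β1 arrays highest and the clones lowest.

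Id4 was not well above background on any of the 5 arrays. Its processed signal lay between 2.73 and 5.26, under the lowest signal called well above background on each array (13.3 to 26.0), so no difference is given for it.

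**Figure D1:**
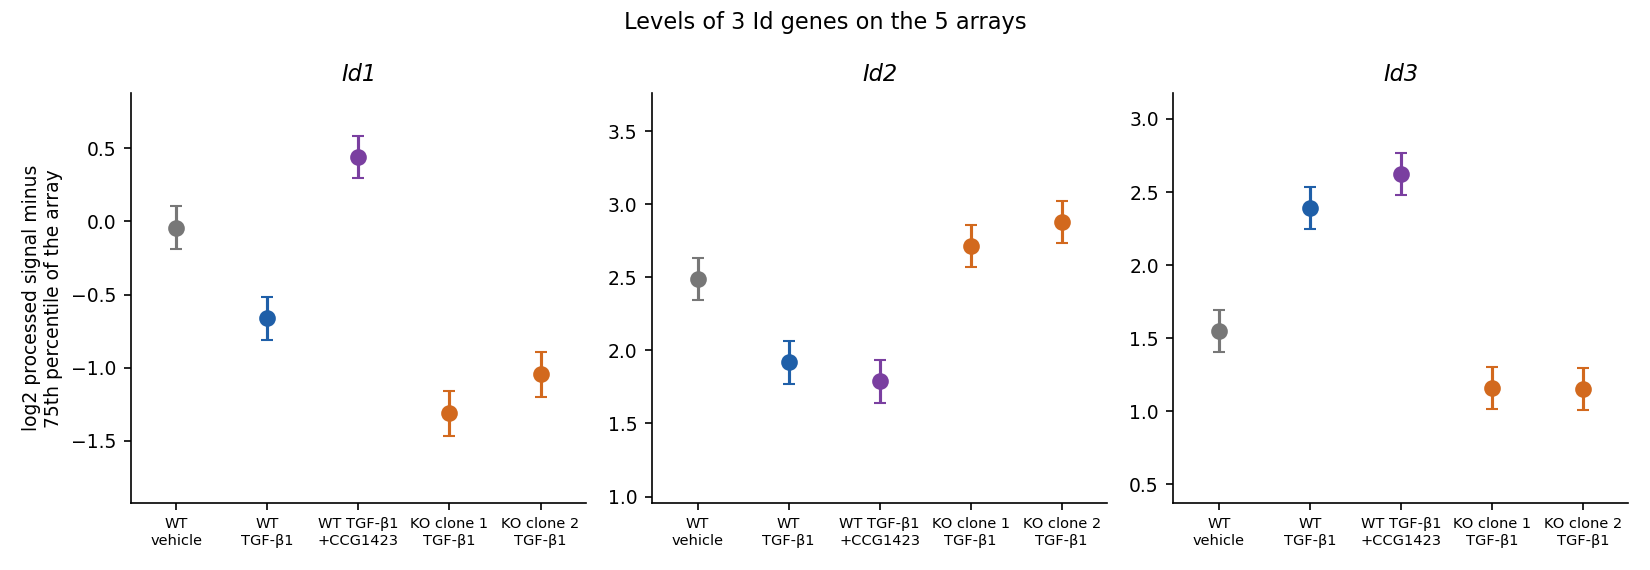
Log2 level (processed signal minus the array's 75th percentile) of Id1, Id2 and Id3 on each of the 5 arrays, 1 point per array, in panels of equal height whose scales differ in position. Bars are the scanner software's modelled error of the spot, about 0.14 to 0.15 log2 units, which leaves out differences between cultures. Both clones lie below every wild-type array for Id1 and Id3 and above every wild-type array for Id2.

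The spread between cultures was known from the 2 clones alone. The moderated standard deviation that limma gave each gene was 0.28 for Id1, 0.23 for Id2 and 0.23 for Id3 on the log2 scale. It rests mostly on the trend of spread over all genes (8.34 prior degrees of freedom). The gene's own 2 clones add 1 residual degree of freedom. With this standard deviation, a difference between 2 single arrays has a standard error of 0.40, 0.33 and 0.33. In the order of Id3 levels, the step from TGF-β1 down to vehicle (0.84) was 2.58 standard errors, and each other step was at most 1.19. In the order of Id2 levels, the step from vehicle down to TGF-β1 (0.57) was 1.75 standard errors, and the other neighbours lay within 0.68 of one. For Id1 the steps from CCG1423 to vehicle and from vehicle to TGF-β1 were 1.20 and 1.55 standard errors, and TGF-β1, clone 2 and clone 1 followed each other within 0.96. Single arrays carry no test, so these ratios describe the steps only.

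The first comparison asks how Id genes differ between wild-type cells with TGF-β1 and with vehicle. Id3 stood higher with TGF-β1, by 0.84 on the log2 scale (1.79-fold). Id1 and Id2 stood lower, by 1.54-fold and 1.49-fold (log2 differences -0.62 and -0.57). Thus 0 of the 3 measured Id genes reached 2-fold, while 4.95% of all 14145 genes were at least 2-fold higher and 3.27% at least 2-fold lower. Among the 12893 genes measured on both arrays, 6.42% differed as much as Id3 in either direction, 10.5% as much as Id1 and 12.1% as much as Id2, against a median absolute difference of 0.17. The level of Id3 relative to Id2, in which a constant scaling of the array cancels, was 2.67-fold above the vehicle array under TGF-β1, and that of Id3 relative to Id1 was 2.76-fold above it. Id1 relative to Id2 differed by -0.05 on the log2 scale and turned to 0.22 with normexp background correction.

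Of 14 listed direct targets of TGF-β through SMAD3, 10 were measured, with 7 at least 2-fold higher, 0 lower and a median of 1.91 against -0.05 over all genes. Ccn2, a matricellular protein, stood 55.5-fold higher there. Of 20 listed inhibitors of BMP signalling 13 were measured, with a median of 0.71, and 4 were at least 2-fold higher: Smad7 and Smad6, the inhibitory SMADs (log2 differences 2.58 and 2.13), Skil, a SMAD corepressor (2.19), and Fstl3, a secreted ligand trap (1.54). Smad6 and Smad7 are also listed BMP-SMAD targets, of which they were the 2 at 2-fold among 9 measured besides the Id genes, and this list had a median of -0.03. Bambi, a decoy receptor on the same list, differed by -0.03, which turned to 0.07 in the deposited value table.

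Among 11 BMP receptors and coreceptors 9 were measured, with a median of 0.12. Bmpr2, the type II receptor, was 2.24-fold higher and Rgmb, a coreceptor, 3.92-fold lower. Smad1 differed by -0.01 and Smad5 by -0.16, and Smad4, the SMAD shared by both branches, by -0.06. Smad1 and Smad4 took the other sign in the deposited value table. Smad9 was well above background with TGF-β1 in wild-type cells alone. Of 14 BMP ligands 4 were measured, none of them at 2-fold, and Bmp2, Bmp4 and Bmp6 were not well above background on any array. The median of the 4 was 0.41, with Bmp8b (2.48) and Bmp10 (1.14) not well above background with vehicle. Bmp8a and Gdf5, well above background on both arrays, differed by -0.86 and -0.31, and Gdf5 turned to 0.01 with normexp.

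Of the E proteins that Id proteins bind, Tcf3 differed by -0.15, Tcf4 by -0.07 and Tcf12 by -0.54 with TGF-β1. Tcf4 turned to 0.03 in the deposited value table. In the list of 27 E proteins and tissue-specific partners 8 were measured, with a median of -0.11. Scx, the tendon factor scleraxis, was 25.4-fold higher with TGF-β1, and Ascl2, a stem cell factor, at least 5.75-fold lower, since it was well above background with vehicle alone. Among the Hes, Hey and Bhlhe repressors, a further helix-loop-helix family, 7 were measured, with a median of 0.09. Hes1, a Notch effector, was 6.15-fold higher, and Hey2, a related repressor, at least 6.08-fold lower. With normexp Hey2 (-0.85) and Ascl2 (-0.93) were both short of 2-fold. None of 5 measured inhibitors of cyclin-dependent kinases reached 2-fold (median -0.29). Cdkn1a differed by -0.20, and Cdkn2a and Cdkn2b were not well above background on any array. Of 21 measured Id partners and regulators (median 0.01), Elk3, an ETS factor, was 2.59-fold higher, and the growth-response factors Egr1 and Myc were 4.15-fold and 2.10-fold lower. Egr1 was short of 2-fold with normexp (-0.75), and Myc with normexp and in the deposited value table (-0.97).

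**Figure D2:**
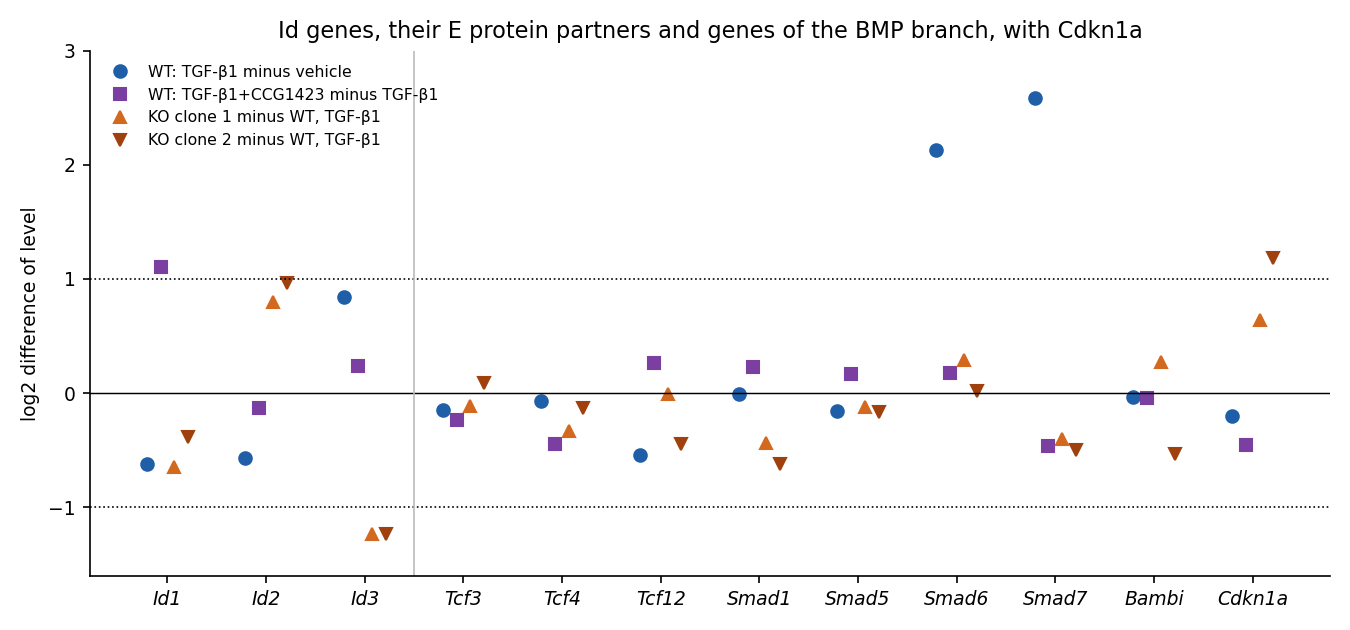
Log2 difference of level in 4 comparisons (symbols) for Id1, Id2 and Id3, left of the vertical line, and for E proteins, genes of the BMP branch and Cdkn1a, right of it, with dotted lines at 2-fold. Smad6 and Smad7 stand far above the other genes in TGF-β1 against vehicle (2.13 and 2.58), whereas the E proteins lie between -0.54 and 0.26 throughout.

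The next comparison adds CCG1423 to TGF-β1 in wild-type cells. Id1 was 2.15-fold higher with CCG1423 than with TGF-β1 alone (log2 difference 1.10). Id2 differed by -0.13 and Id3 by 0.24, both less than the standard error between 2 arrays. Thus 1 of 3 measured Id genes was at least 2-fold higher and 0 lower, beside 6.01% of all 14057 genes higher and 6.98% lower. Among 12626 genes measured on both arrays, 7.79% differed as much as Id1, 80.4% as much as Id2 and 65.1% as much as Id3. Id1 was short of 2-fold with normexp (0.90) and in the deposited value table (0.97). Before scaling, the processed signal of Id1 was 186 with TGF-β1 alone and 311 with CCG1423 added. That of Id3 was 1543 and 1417, so the sign of its difference rests on the scaling.

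Against vehicle, the array with both agents stood 2.11-fold higher for Id3, higher by 0.48 on the log2 scale for Id1 and 1.63-fold lower for Id2. With normexp the Id3 difference was short of 2-fold (0.95). In that comparison 7.56% of 13842 genes were at least 2-fold higher and 8.06% lower. It shares the vehicle array with the first comparison, in which Id3 and Id2 had the same signs and Id1 the opposite one. Melanocyte markers summed to 1799 times the 75th percentile with CCG1423, 2421 with TGF-β1 alone and 2366 with vehicle, and 6 of the 14 were at least 2-fold lower with CCG1423 than with TGF-β1 alone. Immune markers summed to 42.7 with CCG1423 and 33.5 with TGF-β1 alone, and Cd68 was 2.82-fold higher. In cultures measured in bulk, fewer cells of a kind and less RNA per cell cannot be told apart, and the part of these markers in the Id1 difference was not tested.

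With CCG1423, Tcf3 differed by -0.24, Tcf4 by -0.44 and Tcf12 by 0.26, and 0 of 7 measured genes in the list of E proteins and partners reached 2-fold (median -0.24, against -0.05 over all genes). Among 22 measured Id partners and regulators, with a median of -0.15, 3 were at least 2-fold higher. These were Klf17, a repressor of Id1 in breast cancer cells (at least 3.82-fold, above background with CCG1423 alone), Klf4, a growth-arrest factor (5.04-fold), and the stress factor Atf3 (3.44-fold). The 3 lower ones were Srebf1, a sterol regulator, Rbl1, a pocket protein, and Elk3, with log2 differences of -1.19, -1.14 and -1.10. Klf17 (0.83) and, narrowly, Rbl1 were short of 2-fold with normexp, and Elk3 (-0.98) after quantile normalization. Of the 13 BMP inhibitors none reached 2-fold (median -0.14), with Smad6 at 0.18 and Smad7 at -0.46. Smad1 and Smad5 differed by 0.23 and 0.17, and Bambi by -0.04, the last at 0.00 after quantile normalization. None of 9 receptors reached 2-fold (median -0.38), and of 4 ligands (median 0.70) Bmp10 was 5.35-fold higher. Of 8 measured BMP-SMAD targets besides the Id genes (median -0.18), Hey1 was at least 2.85-fold lower. It was the only such gene among 6 Hes, Hey and Bhlhe genes too (median -0.29). With normexp Bmp10 (0.96) and Hey1 (-0.44) were short of 2-fold. None of the 5 kinase inhibitors reached 2-fold (median -0.24), with Cdkn1a at -0.46. SMAD3 targets had a median of -0.16, with Tgif1, a corepressor, higher by 1.18 and Ccn2 lower by 1.14 on the log2 scale.

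**Figure D3:**
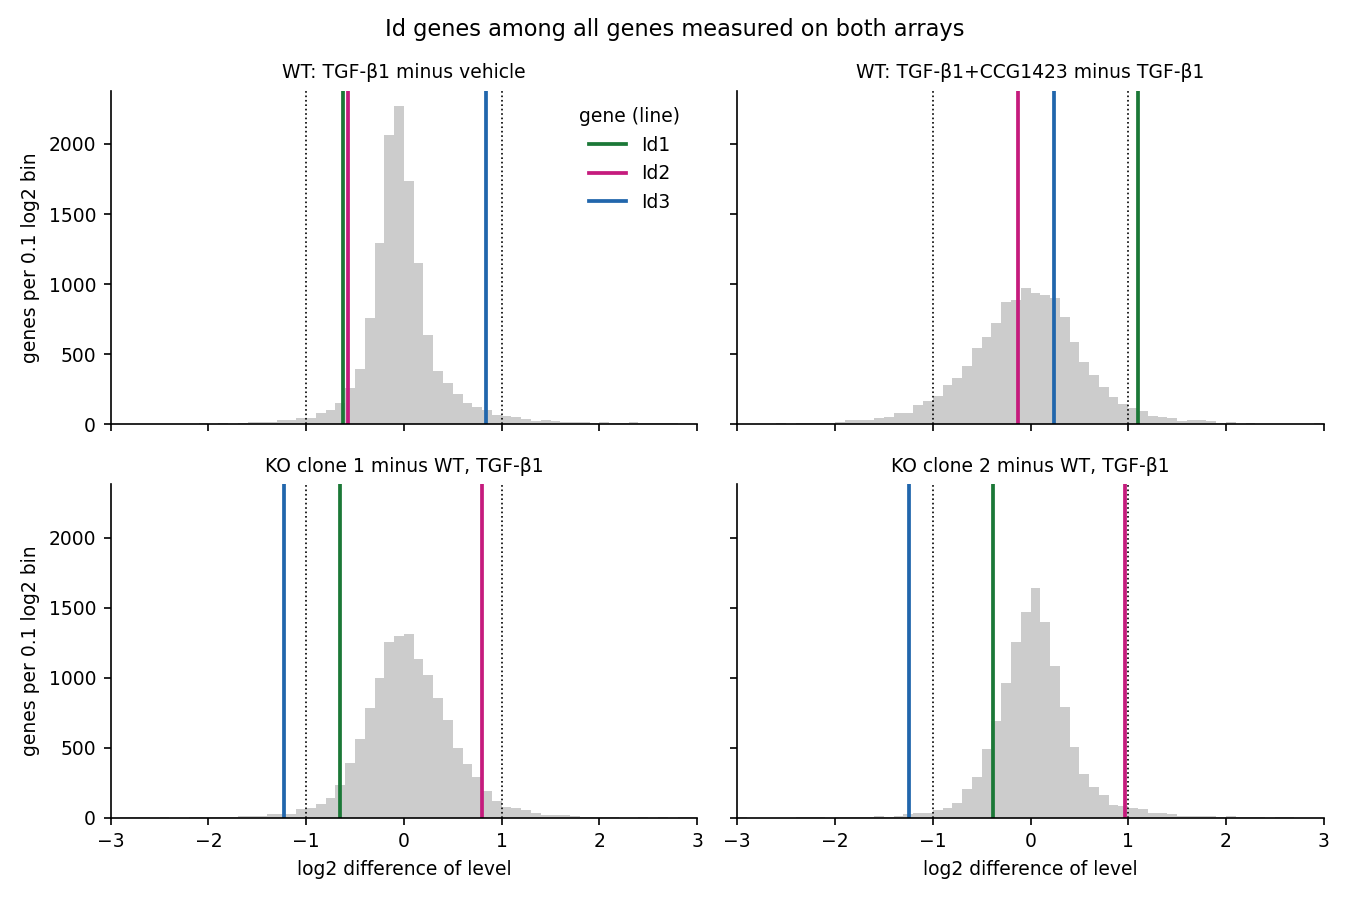
Number of genes by log2 difference (bins of 0.1; the x axis ends at 3 either way) in 4 comparisons, over genes well above background on both arrays, with Id1, Id2 and Id3 as coloured lines and 2-fold as dotted lines. Id1 lies past 2-fold with CCG1423 (1.10), and Id3 lies past it on the lower side in both clones (-1.23 and -1.24).

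The third comparison sets each Tmsb4x knockout clone against wild-type cells, all with TGF-β1. It uses the same wild-type TGF-β1 array as the first comparison and as that of CCG1423 with TGF-β1 alone, so these values are not independent. Id3 stood 2.35-fold lower in clone 1 and 2.36-fold lower in clone 2. Id2 stood higher, by 1.74-fold and 1.95-fold. Id1 was lower by 1.57-fold and 1.30-fold. The 2 clones differed from each other by -0.01 for Id3, 0.17 for Id2 and 0.27 for Id1 on the log2 scale, while 7.57% of all genes differed at least 2-fold between them. Id3 was the 1 Id gene at least 2-fold lower in both clones, beside 1.58% of 13729 genes, and 0 Id genes were at least 2-fold higher in both, beside 0.699%.

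None of the 3 passed the test across all genes, in which limma called 0.233% of 13729 genes (32) at a Benjamini-Hochberg adjusted p of 0.05. The log2 difference of Id3 was -1.24 (SE 0.28, adjusted p = 0.163), that of Id2 0.88 (SE 0.28, adjusted p = 0.495) and that of Id1 -0.52 (SE 0.35, adjusted p = 1.00). Over 9 alternative settings the adjusted p ran from 0.00752 to 0.35 for Id3, from 0.144 to 0.999 for Id2 and from 0.928 to 1.00 for Id1. Id3 passed in 1 of them, without the filter on dim probes. By unadjusted p, Id3 ranked 140, Id2 331 and Id1 2144 among the 13729 genes, and 5.78% of all genes (793) had an unadjusted p under 0.05. The fit has 1 residual degree of freedom, from the clones, and assumes that the single wild-type array varies like them.

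Among genes measured on both arrays, 2.65% differed as much as Id3 in clone 1 and 2.46% in clone 2. For Id2 these shares were 8.44% and 4.58%, and for Id1 13.7% and 26.9%. Relative to Id2 on the same array, Id3 lay 2.03 below wild type in clone 1 and 2.20 below it in clone 2 on the log2 scale (differences of -2.03 and -2.20). Relative to Id2, Id1 gave -1.45 and -1.35. Melanocyte markers summed to 2766 and 2811 times the 75th percentile in the clones against 2421 in wild-type cells with TGF-β1. Of the 14, 1 was at least 2-fold higher in clone 1 and 4 in clone 2, none in both clones, and 0 were lower. Over all genes, 1117 of 14215 were at 2-fold either way in clone 1 and 1048 of 14036 in clone 2. The median difference of the 14 markers over both clones was 0.44 against -0.01 over all genes, and their part in the Id differences was not tested.

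The Id3 level of the clones under TGF-β1 also lay below that of wild-type cells with vehicle, 1.16 and 1.15 against 1.55, and their Id2 level lay above it, 2.71 and 2.88 against 2.49. These arrays differ from the vehicle array in both genotype and TGF-β1, which cannot be told apart.

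In the clones 0 genes of the 10 pathway lists passed the limma test. The targeted gene Tmsb4x did not pass it either (log2 difference -2.26, adjusted p = 0.0857). At an unadjusted p under 0.05 stood Hes6, a helix-loop-helix factor that opposes Hes1 (log2 difference 0.82, adjusted p = 0.586), and Cdkn1a (0.91, adjusted p = 0.593). Cdkn1a stood higher by 0.64 in clone 1 and by 1.18 in clone 2, and the 5 kinase inhibitors had a median of 0.43 against -0.01 over all genes. Of the BMP-SMAD targets, 8 were measured besides the Id genes, with a median of -0.06. Runx2, a transcription factor of bone formation, was the 1 gene of all lists at least 2-fold lower in both clones, beside 1.58% of 13729 genes. It was lower by 2.07-fold in clone 1 and at least 2.27-fold in clone 2. No list gene was at least 2-fold higher in both clones, beside 0.699% of all genes. With normexp background correction Runx2 stood at -0.49 and -0.62. The E proteins and partners had a median of -0.23 over 7 genes, with Tcf3 at -0.11 and 0.08 in clones 1 and 2, Tcf4 at -0.33 and -0.13, and Tcf12 at -0.01 and -0.44.

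BMP receptors had a median of -0.37 over 9 genes, and Acvrl1, a type I receptor, stood higher by 0.86 in clone 1 and lower by 1.59 in clone 2. Smad1 differed by -0.44 and -0.62, Smad5 by -0.12 and -0.16 and Smad7 by -0.40 and -0.50 in the clones. Smad1, Smad5, Smad9 and the shared Smad4 together had a median of -0.34, with Smad9 not well above background in either clone. Smad6 differed by 0.29 and 0.02 and turned to -0.06 and -0.02 in the deposited value table. Bambi differed by 0.27 and -0.53, with the first at -0.09 there. The BMP inhibitors had a median of 0.16 over 13 genes, the ligands -0.47 over 4, the Hes, Hey and Bhlhe genes 0.48 over 6, the Id partners and regulators -0.17 over 21 and the SMAD3 targets -0.14 over 10. Of the 4 ligands, Bmp8a and Gdf5 were well above background on all 5 arrays and stood at 0.16 and -0.02 over both clones. Bmp8b (-0.93) and Bmp10 (-1.03) were not well above background in clone 1.

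Genes with the pattern most like that of each Id gene were found among 12058 genes well above background on all 5 arrays, by the root mean square difference of levels centred on each gene's mean over the arrays. The 5 nearest to Id1 were Ramp2, a partner of the receptors for adrenomedullin (0.09 log2 units), Adamts14, a procollagen protease, Ctrl, a chymotrypsin-like protease, Fign, a microtubule-severing protein, and AF366264 (0.13). The 5 nearest to Id2 were Lpin1, a phosphatidate phosphatase (0.10), Rundc3b, Acss2, an acetyl-CoA synthetase, Idh1, a cytosolic isocitrate dehydrogenase, and Neurl2 (0.13). The 5 nearest to Id3 were Col4a1, a chain of basement membrane collagen (0.16), Itpr3, a calcium channel of the endoplasmic reticulum, Lamb1, a laminin chain, Antxr2, a receptor that binds matrix proteins, and Phldb2 (0.20). Col4a1 stood at 1.64 with vehicle, 2.75 with TGF-β1, 3.18 with CCG1423 added, and 1.31 and 1.35 in the clones. The nearness is a description over these 5 arrays.

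**Figure D4:**
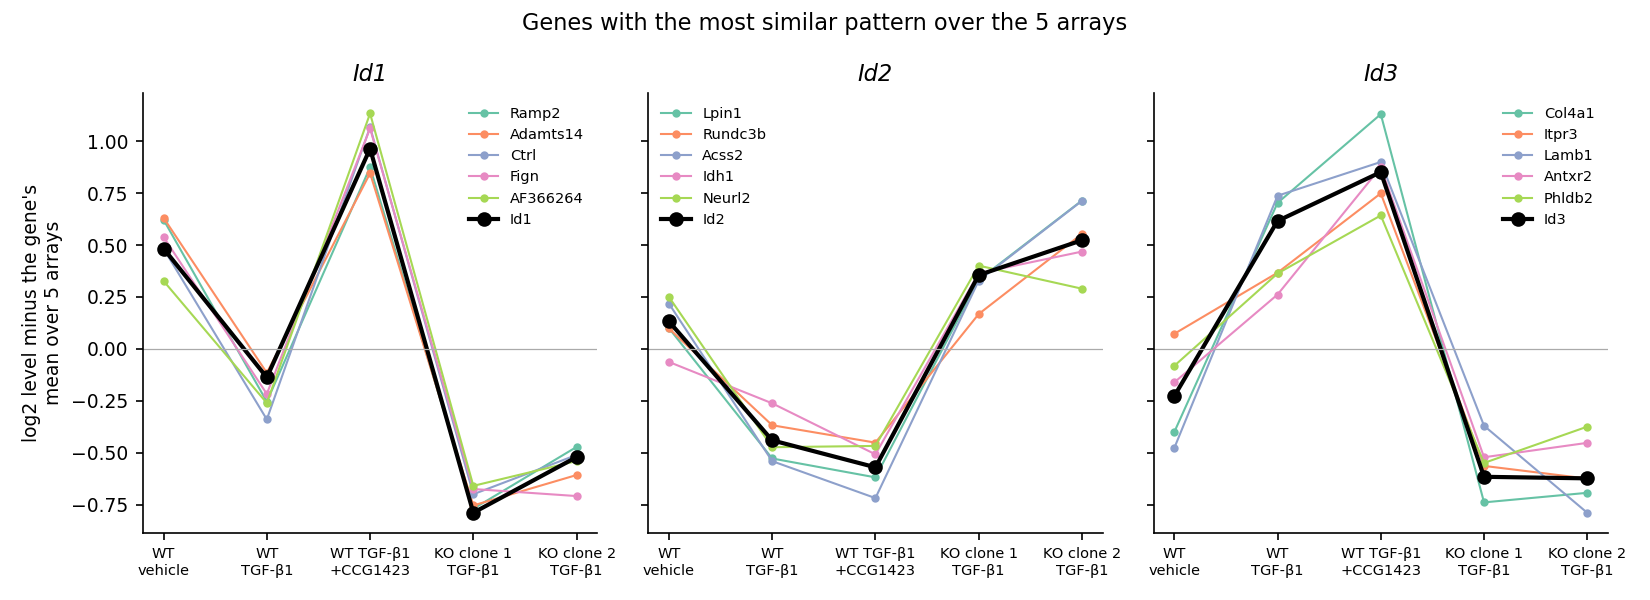
Log2 level minus the gene's own mean over the 5 arrays for Id1, Id2 and Id3 (black) and the 5 nearest genes of each (coloured), 1 point per array, with lines joining points of a gene only as a guide. The genes nearest to Id1 and to Id3 peak with CCG1423, as Id1 and Id3 do, which follows from how they were picked.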

How the data were processed

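RNA of 5 B16F1 cultures was measured on 5 single-dye Agilent arrays, and groups were taken from the sample titles (the knockout's replicate number is its clone number). Agilent Feature Extraction 12.0.3.1, per the submitters' processing notes and the file headers, made the deposited intensity, the processed signal, by background subtraction and spatial detrending within each array. It also set the deposited 0 or 1 flags. The deposited value table holds the same intensity times a constant per array (log2 of the constant -0.01 with vehicle, 0.12 with TGF-β1, 0.34 with CCG1423, -0.17 in clone 1 and -0.08 in clone 2; column medians 26.9, 29.2, 27.5, 23.2 and 28.8). It is linear, not centred and runs in the direction of the signal, and how the constants were set is unknown.

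Controls (3671 spots) and 107 to 141 outlier spots per array were left out of 59305 others. Log2 signal was averaged per probe and the 75th percentile subtracted. Probes were named by RefSeq accession without version through a gene table of GRCm38.p6, which named 32988 of 56595 probes. The array design names an older build, so only promoter coordinates are given. A gene is its probe with the highest mean. A gene entered a comparison if 1 of its groups, or both, had the probe well above background throughout. Where a side was below background, a fold is a bound ("at least") against that array's lowest signal well above background, or the probe's own where higher; log2 differences and medians use the signal itself. Differences between single arrays have no test. The knockout was tested, two-sided, with limma (version 3.58.1, R version 4.3.3; linear models, then eBayes with a trend) on 5 arrays in 4 groups, Benjamini-Hochberg over 13729 genes, after a check on simulated data. The labels name 2 different knockout clones, so the p-values rest on the spread between these clones, moderated over all genes. Nothing in the labels says that the cultures were independent experiments, and each clone has 1 array. Python 3.11.15, numpy 2.4.6, pandas 2.3.3 and matplotlib 3.10.9 did the rest.

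The Id genes and the 10 pathway lists were chosen with earlier results of these data known. Named were every Id probe, the 5 nearest genes of each Id gene spanning at least 1 log2 unit, at most the 2 highest and the 2 lowest genes of a list at 2-fold, and the E proteins, Smad1, Smad5, Smad6, Smad7, Smad9, Bambi, Bmp4, Cdkn1a, Cdkn2b and Tmsb4x in any case. Other named genes were picked after their values were seen. The normexp alternative (offset 50) used median spot signals, since no column of mean signals was found.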

Additional observations from a re-analysis of the deposited data

How the results depend on the processing

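No paired analysis was possible because each group shares only the number 1 and the clone number pairs no samples. Of 177 values of Id1, Id2 and Id3 differences under the alternatives, 175 kept the sign reported, but many of them could not differ. Id1, Id2 and Id3 each have 1 probe, well above background on every array. The alternatives of probe choice, filter and limma trend thus return the reported difference itself. Leaving out a clone returns the difference of the other clone. The exceptions in sign are the near-zero Id3 difference between the clones. It became 0.31 in the deposited value table and also turned positive with normexp background correction. The value table shifted the median of all genes by 0.10 in TGF-β1 against vehicle, -0.13 with CCG1423, -0.36 in clone 1 and 0.32 between the clones. By this construction it moved clone 1 against wild type to -1.01 for Id1, 0.44 for Id2 and -1.59 for Id3, and clone 2 against clone 1 to 0.59 for Id1 and 0.49 for Id2. Id3 in the knockout passed limma without the filter on dim probes (log2 difference -1.24, adjusted p = 0.00752). Without either clone the knockout difference, then a value with no test, ran from -0.65 to -0.38 for Id1, from 0.80 to 0.96 for Id2 and from -1.24 to -1.23 for Id3.

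Counts of genes over the whole array moved more. The normexp offset of 50 exceeds the lowest signal called well above background on each array (13.3 to 26.0). By this construction normexp makes differences of dim genes smaller, and its share in the losses of 2-fold was not tested. With normexp the genes at 2-fold were 573 (1162 as reported) for TGF-β1 against vehicle, 871 (1826) with CCG1423, 1190 (2162) for both agents against vehicle, 419 (1117) in clone 1, 438 (1048) in clone 2, 485 (1049) between the clones and 133 (313) in both clones. Without the filter they were 2584, 3275, 3668, 2588, 2810, 2812 and 884 in that order, and over all probes, a larger set, 2570, 4235, 4856, 2564, 2398, 2452 and 707. Requiring every array compared above background gave 622 for TGF-β1, 603 and 529 in the clones, 543 between them and 132 in both. With 1 clone left out, 1048 to 1117 genes stood at 2-fold in the other. The 32 genes called by limma became 0 with quantile normalization and with the mean over probes (785 and 753 at an unadjusted p under 0.05), 53 with median scaling, 85 with normexp, 220 in the value table, 279 without the filter, 3 with the stricter filter, 146 over all probes and 184 without a trend; the cause was not tested. Dim signal limits Id4, for which no difference could be given.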
